A study of Mus musculus with 10 samples.

Results

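Expression of 10 genes of the ectoplasmic specialization and of actin bundling was followed in RNA-seq libraries from *Rnf20* conditional knockout and control mice. The genes were taken by their symbols, and they are *Espn*, *Fscn1*, *Pls3*, *Actn1*, *Actn4*, *Palld*, *Eps8*, *Ezr*, *Vcl* and *Arpc5*. All 10 were listed in a day 7 table of 17816 genes and in an adult table of 20007 genes, and all 10 passed the filter on low values in both. RNF20 is a ubiquitin ligase that acts on histone H2B, and the Cre recombinase that deletes the floxed *Rnf20* alleles was driven by the *Amh* promoter, which is active in Sertoli cells, the epithelial cells of the seminiferous tubule that nurse the germ cells. The day 7 table held Sertoli cells of mice 7 days after birth, 2 libraries of *Rnf20* Flox/Flox controls, which the labels call WT, and 2 of Amh-Rnf20-/- knockouts. These were primary cultures released from testes by collagenase and trypsin and passaged several times before the adherent cells were used. Their age was taken from the titles and the extraction protocol, while the growth protocol label gives adult tissue for these samples too. The methods give more mice at day 7 than the 2 per group analysed here. The adult table held whole testis, 3 libraries labelled WT and 3 labelled as *RNF20* conditional knockout, without treatment. The strain of the mice was not given in the sources used here.

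The ectoplasmic specialization is a junction made by the Sertoli cell, in which bundled actin filaments are held between the plasma membrane and a cistern of endoplasmic reticulum. It is found at the base of the epithelium, where it forms part of the blood-testis barrier, and at the apex, where it holds the head of the elongating spermatid. Bundling proteins keep the filaments parallel, attachment proteins link them to the membrane, and the Arp2/3 complex nucleates branched filaments when the junction is reorganized.

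Estimated counts summed to between 17477268 and 17705347 per library at day 7 and to between 15431912 and 16574144 in adult testis. *Rnf20* itself measured 16.64 and 16.01 FPKM (fragments scaled by transcript length and library size) in the day 7 controls against 10.25 and 12.58 in the knockouts, so that the groups did not overlap, with a log2 fold change of -0.49 (SE 0.12, edgeR adjusted p = 0.222). In adult testis *Rnf20* measured 4.89, 3.32 and 4.09 FPKM in the controls and 9.16, 5.76 and 9.85 FPKM in the knockouts, with a log2 fold change of 0.12 (SE 0.27, edgeR adjusted p = 0.688), and with total-count scaling it was called higher (0.97, adjusted p = 0.0168). The *Rnf20* level was therefore not lower as a group in the adult libraries labelled knockout, and they are called labelled knockouts below. It was measured per gene in whole testis, whereas the deletion was directed to Sertoli cells. By Western blot, the paper reports less RNF20 protein in adult knockout testes. Adult controls were rich in spermatid transcripts, with 10 spermatid markers summing to between 124580 and 193240 FPKM, whereas the same markers summed to 4.09, 93.95 and 53.36 FPKM in the labelled knockouts. In labelled knockout 1, 3 of these 10 markers were listed at 0, and 3055 of 15919 tested genes (19.2%) lay more than 2-fold below the mean of the other labelled knockouts. Since this library stood apart, adult calls of the 10 genes that changed without it are also given.

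The positions of the genes in the mouse genome (RefSeq, GRCm38.p6) are spread over separate chromosomes. *Espn* (Entrez gene 56226) lies at chr4:152120331-152152414, *Fscn1* (14086) at chr5:142960355-142973189, *Pls3* (102866) at chrX:75785653-75875182, *Actn1* (109711) at chr12:80167542-80260420 and *Actn4* (60595) at chr7:28893248-28962351. *Palld* (72333) lies at chr8:61511431-61902707, *Eps8* (13860) at chr6:137477245-137649397, *Ezr* (22350) at chr17:6738131-6782780, *Vcl* (22330) at chr14:20929383-21033676 and *Arpc5* (67771) at chr1:152766542-152775580. Promoter windows of 250 bases upstream of an annotated start were read for 9 of the genes, 15 windows in all. The windows that follow, 5′ to 3′ on the coding strand, are those of *Ezr*, which had the largest adult fold change, of *Arpc5*, which had the highest level in the adult labelled knockouts, and of *Fscn1*, which was called in neither table. Capitals mark GGGCGG on either strand and TATAAA.
*Ezr* promoter, chr17:6782781-6783030, minus strand: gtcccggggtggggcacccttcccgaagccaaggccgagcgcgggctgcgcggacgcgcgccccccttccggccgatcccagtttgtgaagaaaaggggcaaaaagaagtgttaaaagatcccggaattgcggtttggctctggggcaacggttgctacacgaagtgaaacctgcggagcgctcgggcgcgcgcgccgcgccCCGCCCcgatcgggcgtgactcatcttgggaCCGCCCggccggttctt
*Arpc5* promoter, chr1:152766292-152766541, plus strand: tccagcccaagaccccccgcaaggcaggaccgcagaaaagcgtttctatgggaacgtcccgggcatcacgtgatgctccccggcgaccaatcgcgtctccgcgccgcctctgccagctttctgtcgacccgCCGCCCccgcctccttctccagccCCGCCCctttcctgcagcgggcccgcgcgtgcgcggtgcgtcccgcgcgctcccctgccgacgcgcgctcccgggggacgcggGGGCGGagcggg
*Fscn1* promoter, chr5:142960105-142960354, plus strand: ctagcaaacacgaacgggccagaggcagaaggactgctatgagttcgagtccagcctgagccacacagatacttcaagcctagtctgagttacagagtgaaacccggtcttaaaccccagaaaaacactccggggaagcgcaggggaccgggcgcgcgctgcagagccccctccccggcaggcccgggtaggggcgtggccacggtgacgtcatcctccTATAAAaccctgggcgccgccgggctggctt
In the *Ezr* window GGGCGG lay opposite the printed strand, where it reads CCGCCC, at -48 and -17 from the start, and a TGANTCA match, TGACTCA, began at -32. In the *Arpc5* window GGGCGG was found at -119, -95 and -12, together with CCAAT at -164. The *Fscn1* window held TATAAA at -31 and no GGGCGG. Of 32851 windows of the same length over all genes, 32.7% held GGGCGG, 33.8% held CCAAT, 12.4% held TATAAA and 6.75% held TGANTCA, both strands being searched. A CArG box, the element bound by serum response factor, was found among these genes in the *Vcl* window alone, where CCTTATAAGG began at -227, and 1.47% of all windows held such a box. These matches describe the letters in the windows and were not tested against the expression values.

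In Sertoli cells at day 7, the 10 genes were expressed in both groups, and none was called between them. By the edgeR quasi-likelihood test with adjustment over all 12880 genes tested, 0 of 10 had an adjusted p-value under 0.05, as for all genes (0.0%). At an unadjusted p-value under 0.05 the count was also 0 of 10, against 15.5% of all genes. DESeq2 and limma also called 0 of 10. Groups were apart without overlap on TMM-scaled counts (counts scaled by edgeR for library size and composition) for 7 of the genes, each with the knockouts higher, against 24.8% of all genes, and for 0 with the knockouts lower, against 26.1% of all genes. On FPKM only *Fscn1*, *Ezr* and *Actn1* were apart, so that *Espn*, *Pls3*, *Vcl* and *Arpc5* were apart on TMM-scaled counts alone. The share of all genes was not counted on FPKM. The median log2 fold change over the 10 genes was 0.21. Nothing in the labels states that the samples were separate cultures, so the p-values measure the spread between these samples, which may in part be technical.

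**Figure D1:**
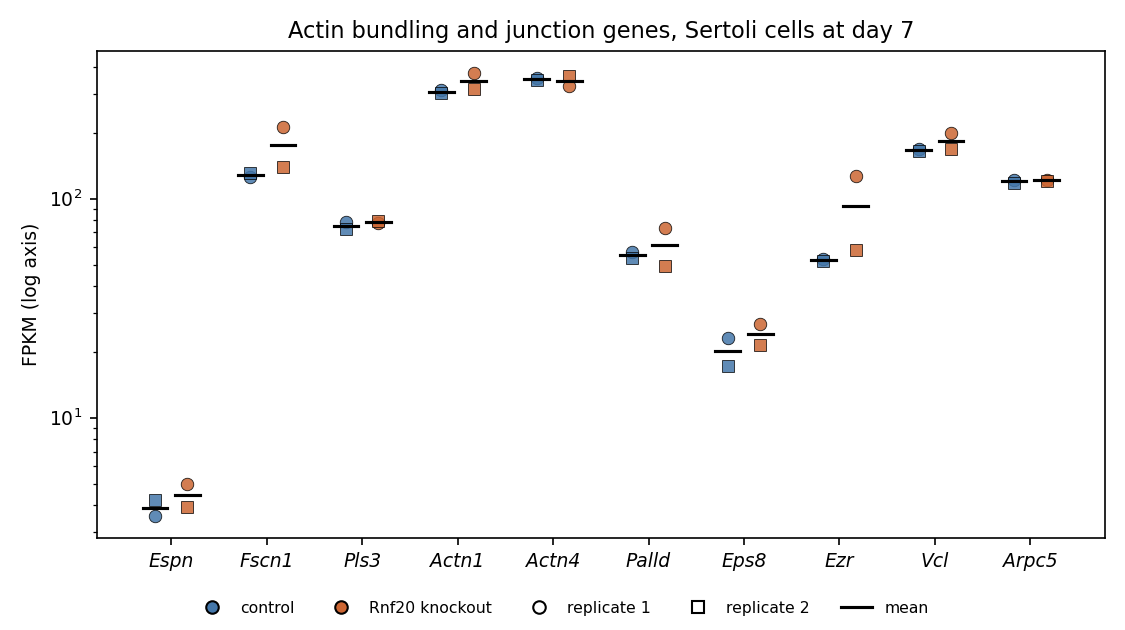
FPKM on a log axis of each gene in the 4 Sertoli cell libraries at day 7, with control libraries in blue, knockout libraries in orange, a circle for replicate 1, a square for replicate 2 and a bar for the group mean. *Ezr* and *Fscn1* were highest in knockout replicate 1, at 127.32 and 211.51 FPKM, and *Palld* in the knockouts lay on either side of its controls.

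Levels at day 7 spanned a wide range. In the controls the order was *Actn4* (351.5 FPKM on average), *Actn1* (307.0), *Vcl* (167.0), *Fscn1* (127.5), *Arpc5* (119.8), *Pls3* (75.31), *Palld* (55.22), *Ezr* (52.4), *Eps8* (20.16) and *Espn* (3.89), and no neighbours in this order overlapped between the 2 controls. In the knockouts *Actn1* (345.5 FPKM) stood beside *Actn4* (343.5 FPKM) with overlapping values, *Vcl* overlapped *Fscn1*, and *Ezr* overlapped both *Arpc5* and *Pls3*.

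Among the bundling proteins at day 7, *Espn*, which encodes espin, the bundler named for the ectoplasmic specialization, measured 3.57 and 4.21 FPKM in the controls and 4.96 and 3.91 FPKM in the knockouts. The FPKM values overlapped, and the log2 fold change was 0.28 (SE 0.18, edgeR adjusted p = 0.519). *Fscn1*, encoding fascin, measured 124.8 and 130.11 FPKM in the controls against 211.51 and 139.15 FPKM in the knockouts. Both knockouts were above both controls, most of the distance being in knockout 1, and the log2 fold change was 0.50 (SE 0.22, adjusted p = 0.367). *Pls3*, encoding plastin 3, was at 78.2 and 72.43 FPKM in the controls and 77.68 and 79.31 FPKM in the knockouts, which overlapped, with a log2 fold change of 0.10 (SE 0.08, adjusted p = 0.618).

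The crosslinkers of the alpha-actinin family were the most abundant of the genes at day 7. *Actn1* measured 311.41 and 302.49 FPKM in the controls and 374.35 and 316.62 FPKM in the knockouts, with both knockouts above the controls and a log2 fold change of 0.21 (SE 0.11, edgeR adjusted p = 0.431). *Actn4* measured 356.54 and 346.36 FPKM against 325.37 and 361.62 FPKM, and the knockouts lay on either side of the controls with a log2 fold change of 0.01 (SE 0.09, adjusted p = 0.981), a sign that turned with total-count scaling (-0.03). *Palld* encodes palladin, a scaffold that binds alpha-actinin. It measured 56.98 and 53.47 FPKM in the controls, with knockout 1 above them at 73.38 FPKM and knockout 2 below them at 49.35 FPKM, and its log2 fold change was 0.21 (SE 0.22, adjusted p = 0.692).

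Of the genes that act at the membrane, *Ezr* had the largest ratio between the knockout replicates of all 10 genes. *Ezr*, which encodes ezrin, a linker of actin to membrane proteins, measured 52.91 and 51.89 FPKM in the controls and 127.32 and 58.31 FPKM in the knockouts. Both knockouts were higher, but knockout 1 was 2.20 times knockout 2 on TMM-scaled counts, and the log2 fold change of 0.87 had an SE of 0.38 (edgeR adjusted p = 0.376). *Eps8*, encoding a protein that caps and bundles filaments, measured 23.09 and 17.24 FPKM against 26.83 and 21.44 FPKM, which overlapped, with a log2 fold change of 0.27 (SE 0.20, adjusted p = 0.557). *Vcl* encodes vinculin, which links filaments to cadherin and integrin contacts. It was at 169.07 and 164.96 FPKM in the controls and 199.0 and 168.77 FPKM in the knockouts, knockout 2 falling within the control range, with a log2 fold change of 0.18 (SE 0.11, adjusted p = 0.498). *Arpc5*, a subunit of the Arp2/3 complex, was at 121.35 and 118.25 FPKM against 122.09 and 120.55 FPKM, with a log2 fold change of 0.06 (SE 0.07, adjusted p = 0.753).

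The day 7 counts of calls turned on single knockout libraries. Without knockout 2, 7 of the 10 genes were called, all higher, where 21.0% of all genes were called higher, and the log2 fold change of *Ezr* was 1.33 and that of *Fscn1* 0.78. Without knockout 1, *Ezr* and *Fscn1* were called, at 0.19 and 0.16, where 9.74% of all genes were called higher, and *Palld* was at -0.13. With a single knockout library left, the spread of that group was taken from the controls. The control pair differed little (a chi-square of 2.65 per degree of freedom) and the knockout pair more (34.3).

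Cell type markers were also compared between the day 7 groups, and none of them was called by edgeR. An unadjusted p-value under 0.05 was found for 15.5% of all genes. Among the markers it was found for 3 of 15 tested Sertoli cell, all 8 myoid, all 6 fibroblast and 6 of 8 spermatogonium markers. It was also found for 1 of 5 spermatocyte and 3 of 4 Leydig cell markers, and for 0 of the tested macrophage, endothelial and spermatid markers. The 16 Sertoli cell markers summed to 1665.2 and 1485.6 FPKM in the controls and to 896.9 and 1235.3 FPKM in the knockouts, with none at 0 in any library. *Clu* made up most of each sum, at 961.17 and 859.08 FPKM against 654.94 and 741.47 FPKM. On TMM-scaled counts 8 of the 15 tested Sertoli cell markers were lower without overlap and 1 higher, and the mean of log2(FPKM + 0.1) over the 16 was 4.12 and 3.86 in the controls against 2.88 and 3.91 in the knockouts, so that knockout 2 fell between the controls. *Sox9*, which defines the Sertoli cell, measured 41.84 and 39.43 FPKM against 10.19 and 25.66 FPKM. The 8 markers of peritubular myoid cells, the contractile cells around the tubule, summed to 2524.1 and 2382.3 FPKM in the controls and to 4138.2 and 4310.1 FPKM in the knockouts, with none at 0, and all 8 were higher without overlap. The 6 stromal fibroblast markers summed to 2151.6 and 2235.8 FPKM against 3920.1 and 3305.8 FPKM, with none at 0, and all 6 were higher without overlap. The 8 spermatogonium markers summed to 208.7 and 201.37 FPKM in the controls and to 144.81 and 139.01 FPKM in the knockouts, all 8 lower without overlap, as were 4 of 5 tested spermatocyte markers, and 3 of 4 tested Leydig cell markers were higher without overlap. *Uchl1* made up most of each spermatogonium sum, at 164.85 and 148.82 FPKM against 119.76 and 106.98 FPKM. *Acta2*, which defines myoid cells in this tissue, measured 1097.44 and 1058.09 FPKM in the controls and 2134.23 and 2091.04 FPKM in the knockouts. Myoid cells and fibroblasts also make actin-binding proteins of these kinds, and the part of such cells in the levels of the 10 genes was not tested.

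In whole adult testis, 7 of the 10 genes were higher in the labelled knockouts, and none was lower. *Ezr*, *Eps8*, *Pls3*, *Arpc5*, *Actn1*, *Espn* and *Actn4* were called higher at an adjusted p-value under 0.05, where 40.9% of the 15919 genes tested were called higher and 40.6% lower. The same 7 were apart without overlap on TMM-scaled counts, against 42.4% of all genes with the labelled knockouts higher and 43.1% with them lower. The median log2 fold change of the 10 genes was 1.87, against 0.01 over all genes tested. Under the thresholds of the study's methods, which ask for more than 1 on the log2 scale together with an adjusted p-value under 0.001, *Eps8*, *Pls3*, *Ezr*, *Actn1* and *Arpc5* were called, where 23.0% of all genes were called higher. In whole tissue, fewer cells of a type and less RNA per cell cannot be told apart.

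The scaling between adult libraries sets the size of these changes. TMM factors ranged from 0.710 to 0.761 in control libraries and from 1.27 to 1.42 in labelled knockout libraries, and with total-count scaling the median gene was shifted by 0.87 on the log2 scale. On that scale all 10 genes were called higher, where 54.1% of all genes were called higher, and their median was 2.74. The deposited FPKM values are scaled by library total and by gene length, without a correction for composition.

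**Figure D2:**
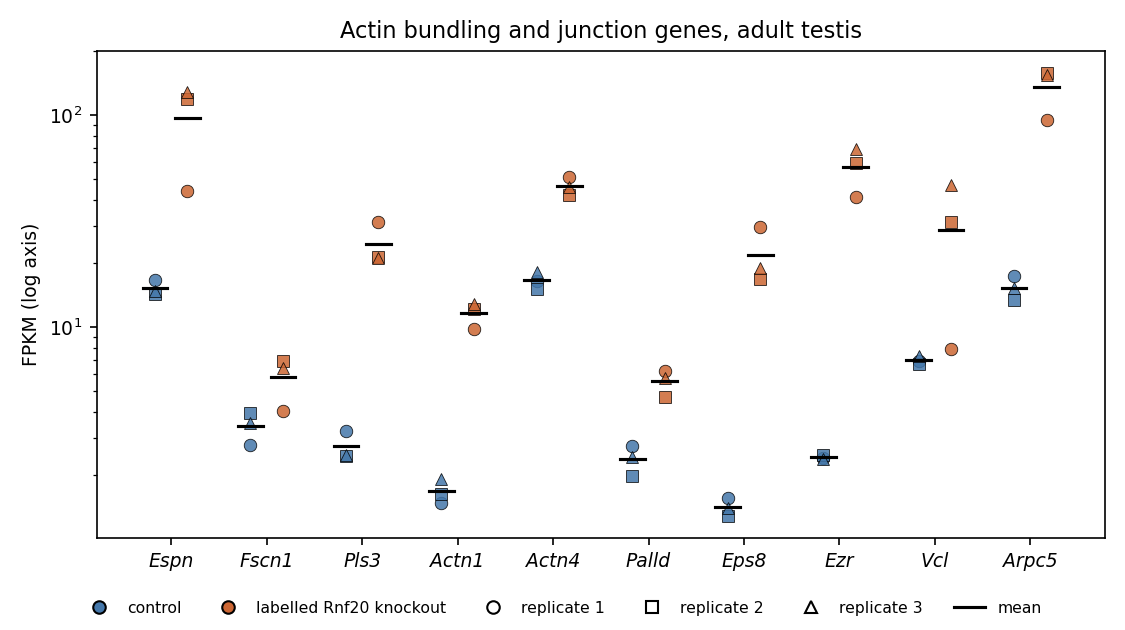
FPKM on a log axis of each gene in the 6 adult testis libraries, with control libraries in blue, labelled knockout libraries in orange, a symbol for each replicate and a bar for the group mean. On this scale, which has no correction for composition, the groups did not overlap for any of the 10 genes. The share of all genes without overlap on FPKM was not counted. On TMM-scaled counts *Fscn1*, *Palld* and *Vcl* overlapped, and 42.4% of all genes were apart with the labelled knockouts higher. *Vcl* in labelled knockout 1, at 7.89 FPKM, lay just above its controls.

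Of espin, plastin 3 and fascin, *Espn* had the highest adult level. *Espn* measured 16.68, 14.33 and 14.75 FPKM in the controls and 43.89, 118.67 and 129.27 FPKM in the labelled knockouts. All 3 labelled knockouts were above the controls, with labelled knockout 1 well below the other two, and *Espn* rose with a log2 fold change of 1.74 (SE 0.38, edgeR adjusted p = 0.00537). Without labelled knockout 1 it was 2.21. *Pls3* measured 3.25, 2.46 and 2.50 FPKM in the controls and 31.35, 21.42 and 21.09 FPKM in the labelled knockouts. It was highest in labelled knockout 1 and rose with a log2 fold change of 2.33 (SE 0.24, adjusted p = 0.000239). *Fscn1* behaved otherwise, at 2.78, 3.95 and 3.52 FPKM in the controls and 4.04, 6.94 and 6.39 FPKM in the labelled knockouts. On TMM-scaled counts its groups overlapped with a log2 fold change of -0.11 (SE 0.26, adjusted p = 0.705), while with total-count scaling the sign turned (0.76, adjusted p = 0.0348), below the shift of 0.87 of the median gene.

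The alpha-actinins both rose in adult testis but to unlike degrees. *Actn1* measured 1.48, 1.64 and 1.92 FPKM in the controls and 9.79, 12.2 and 12.86 FPKM in the labelled knockouts, a narrow range within each group, with a log2 fold change of 1.99 (SE 0.16, edgeR adjusted p = 9.71e-05). *Actn4* measured 16.45, 15.19 and 18.26 FPKM against 50.89, 42.18 and 45.87 FPKM, with a log2 fold change of 0.63 (SE 0.14, adjusted p = 0.00697). Its change was the smallest of the 7 that were called. *Palld* measured 2.74, 1.99 and 2.43 FPKM against 6.24, 4.67 and 5.77 FPKM, and its groups overlapped on TMM-scaled counts with a log2 fold change of 0.24 (SE 0.17, adjusted p = 0.224). With total-count scaling it was called at 1.09 (adjusted p = 0.00146).

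*Ezr* and *Eps8*, which act where filaments meet the membrane, had the largest adult changes of the set. *Ezr* measured 2.42, 2.50 and 2.38 FPKM in the controls and 41.02, 59.72 and 69.22 FPKM in the labelled knockouts, and the group means differed 23.3-fold on FPKM. It rose with a log2 fold change of 3.67 (SE 0.20, edgeR adjusted p = 3.42e-05), 12.73-fold on TMM-scaled counts. *Eps8* measured 1.57, 1.29 and 1.40 FPKM in the controls and 29.62, 16.86 and 19.07 FPKM in the labelled knockouts. It was highest in labelled knockout 1 and rose with a log2 fold change of 3.11 (SE 0.29, adjusted p = 0.000149), 8.64-fold.

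*Vcl* was the gene whose adult call turned on a single library. It measured 6.95, 6.73 and 7.31 FPKM in the controls and 7.89, 31.43 and 46.66 FPKM in the labelled knockouts. Labelled knockout 1 stood near the controls on FPKM and below them on TMM-scaled counts, where it was at 0.221 of the mean of the other labelled knockouts. The log2 fold change was 1.15 (SE 0.56, edgeR adjusted p = 0.0989), and without labelled knockout 1 it was 1.71 (adjusted p = 3.90e-06), so that 8 of 10 genes were then called higher, where 45.3% of all genes were called higher. Deposited counts of *Vcl* and *Actn4*, unlike those of the other 8 genes, were not whole numbers in nearly all libraries (differing from a whole number by more than 0.005), so their values hold reads that RSEM divided between genes.

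*Arpc5* had the highest mean level in the labelled knockouts, at 94.55, 158.24 and 154.23 FPKM against 17.36, 13.41 and 15.27 FPKM in the controls. It rose with a log2 fold change of 2.28 (SE 0.21, edgeR adjusted p = 0.000152), with labelled knockout 1 the lowest of its group. Its day 7 log2 fold change was 0.06, and the difference between the 2 tables was not tested, since they were made separately.

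**Figure D3:**
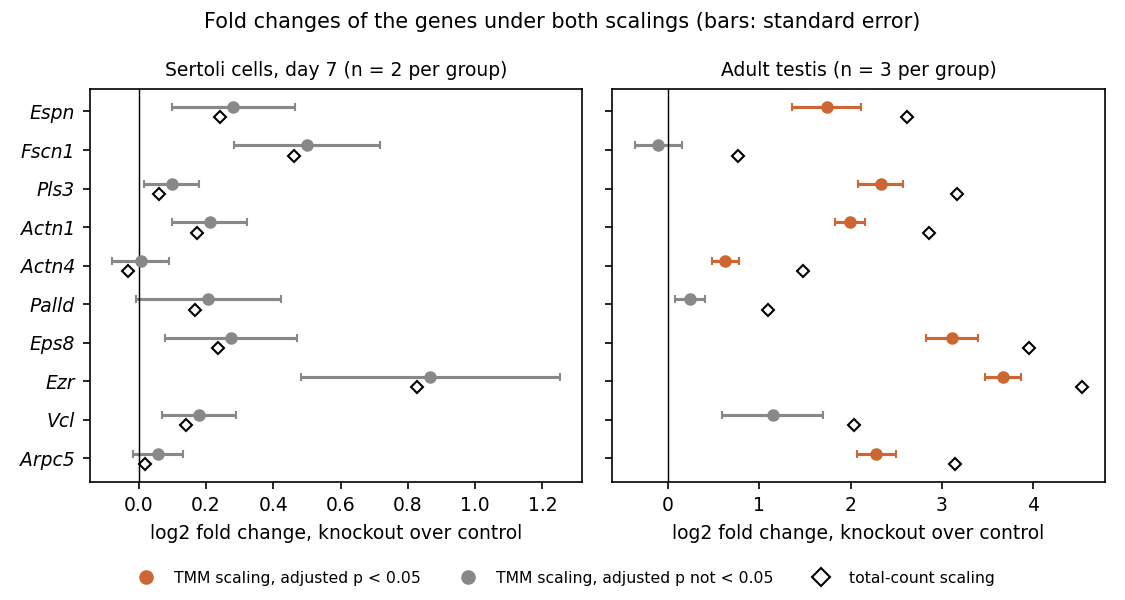
Log2 fold change of knockout over control for each gene in Sertoli cells at day 7 (left, n = 2 per group) and in adult testis (right, n = 3 per group), with filled circles for TMM scaling, orange where the adjusted p-value was under 0.05, bars for the standard error and open diamonds for total-count scaling. *Ezr* had the highest value in both panels, 0.87 at day 7 and 3.67 in adult testis, and in adult testis the total-count values lay further to the right for every gene.

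The order of the adult levels also differed between the groups. In the controls *Actn4* (16.63 FPKM on average), *Arpc5* (15.35) and *Espn* (15.25) were highest with overlapping values, followed by *Vcl* (6.997), then by *Fscn1* (3.417), *Pls3* (2.737), *Ezr* (2.433) and *Palld* (2.387), each overlapping the next, and by *Actn1* (1.68) and *Eps8* (1.42), which overlapped. In the labelled knockouts *Arpc5* (135.7 ± 35.67 FPKM, SD, n = 3), *Espn* (97.28 ± 46.54), *Ezr* (56.65 ± 14.35), *Actn4* (46.31 ± 4.372), *Vcl* (28.66 ± 19.53), *Pls3* (24.62 ± 5.831) and *Eps8* (21.85 ± 6.819) each overlapped the next. *Actn1* (11.62 ± 1.616) did not overlap *Eps8*, the next above it, but lay within the range of *Vcl* (7.89 to 46.66 FPKM), and *Fscn1* (5.79 ± 1.54) and *Palld* (5.56 ± 0.8058) overlapped. *Espn* was thus the lowest of the genes in the day 7 cultures and among the highest in adult testis, in levels from tables that were scaled separately. Passaged cultures and whole testis also differ in age, culture and cell mixture, which cannot be told apart here.

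Labelled knockout 1 set the genes apart in opposite directions. Relative to the mean of the other labelled knockouts on TMM-scaled counts it was at 0.221 for *Vcl*, 0.390 for *Espn*, 0.655 for *Arpc5*, 0.657 for *Fscn1*, 0.691 for *Ezr* and 0.851 for *Actn1*. It was above them for *Palld* (1.18), *Actn4* (1.25), *Pls3* (1.60) and *Eps8* (1.81). The same library was below both other labelled knockouts for 12 of the 16 Sertoli cell markers, above both for 1, *Inha* (765.73 FPKM against 244.87 and 368.15 FPKM), and between or level with them for 3. It was low for *Sox9*, at 1.20 FPKM against 9.86 and 12.65 FPKM, and for *Dhh*, a ligand secreted by Sertoli cells, at 2.21 FPKM against 24.29 and 30.65 FPKM. It was high in stromal fibroblast markers, which summed to 3390.4 FPKM against 1327.1 and 1303.2 FPKM. The part of these markers in the levels of the 10 genes was not tested.

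**Figure D4:**
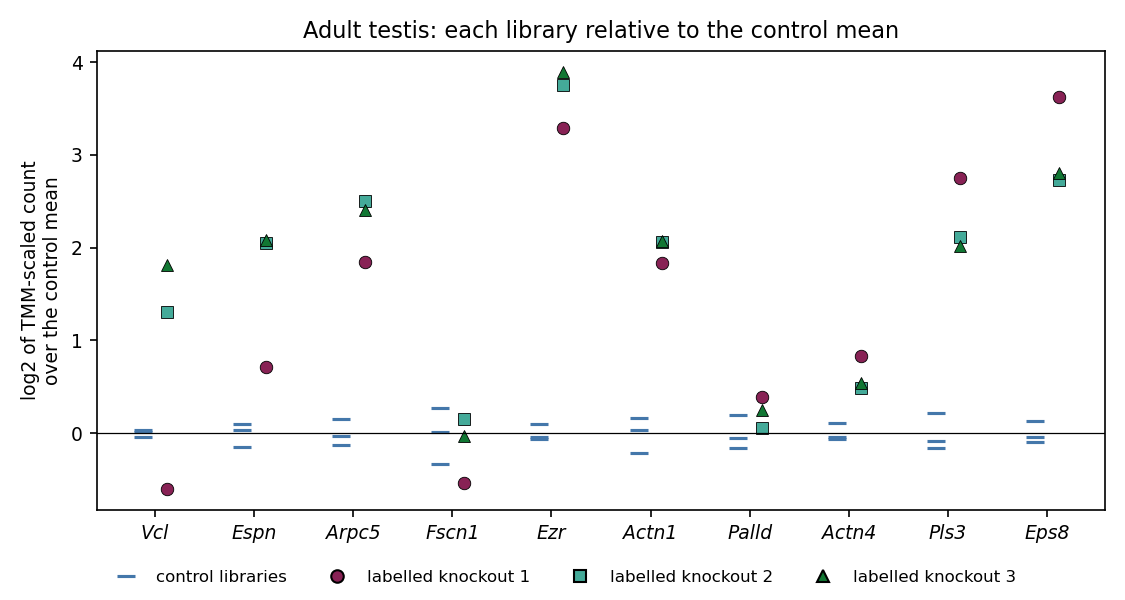
TMM-scaled count of each gene in each adult library relative to the control mean, on a log2 scale, with blue bars for control libraries and 1 symbol for each labelled knockout library, the genes being ordered by the position of labelled knockout 1. Labelled knockout 1 lay below its group for *Vcl* (-0.60) and *Espn* (0.71) and above it for *Pls3* (2.75) and *Eps8* (3.62).

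Other cell type markers also differed between the adult groups. The 16 Sertoli cell markers summed to between 1092.2 and 1456.3 FPKM in the controls and to 2983.6, 6339.6 and 7574.4 FPKM in the labelled knockouts, and 6 of them were called higher and 1 lower. With total-count scaling 10 were called higher and 1 lower. *Clu* made up most of each labelled knockout sum, at 1856.83, 4410.99 and 4953.39 FPKM, and in labelled knockout 1, 10 of the 16 markers were below all controls. The mean of log2(FPKM + 0.1) over the 16 markers was between 3.53 and 3.92 in the controls, and labelled knockout 1 fell among them at 3.67, with 5.56 and 6.03 in the other two. The 8 myoid markers summed to between 343.22 and 409.05 FPKM against 685.77, 466.05 and 583.76 FPKM, with 6 called higher and 1 lower. The 1 that was lower, *Actg2*, made up most of the control sum, at 255.04, 335.45 and 278.04 FPKM against 1.67, 2.22 and 3.6 FPKM, and the median log2 fold change of the 8 markers was 2.32. The 6 stromal fibroblast markers summed to between 40.5 and 53.37 FPKM in the controls and all 6 were called higher. All 6 markers of Leydig cells and all 6 of macrophages were called higher, as were 5 of 6 endothelial markers, and none of these somatic markers was listed at 0 in any adult library. The 8 spermatocyte markers summed to between 514.82 and 548.94 FPKM in the controls and to 2.23, 98.47 and 174.9 FPKM in the labelled knockouts, and on TMM-scaled counts all 8 were lower without overlap and 4 of them were called. With total-count scaling 2 of the 8 were called lower. The 8 spermatogonium markers summed to between 258.58 and 289.98 FPKM against 48.12, 302.53 and 439.96 FPKM, with 2 called higher and 2 lower of 7 tested. *Ddx4* made up most of each control sum, at 182.52, 169.07 and 198.93 FPKM. *Uchl1* made up most of the sums in labelled knockouts 2 and 3, at 189.3 and 297.01 FPKM.

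To set the genes against Sertoli cell transcripts in the same library, log2(FPKM + 0.1) of each gene was compared with the mean of the 16 Sertoli cell markers. In adult testis this ratio was higher in the labelled knockouts without overlap for 7 of 10 genes, with differences on the log2 scale of 3.06 for *Ezr*, 2.43 for *Eps8*, 1.72 for both *Pls3* and *Arpc5*, 1.33 for *Actn1*, 1.13 for *Espn* and 0.29 for *Vcl*, where 23.0% of all genes tested were higher without overlap on the same ratio. Without labelled knockout 1 the differences were smaller for *Eps8* (1.48), *Pls3* (0.83) and *Actn1* (0.74), as for *Ezr* (2.57), *Arpc5* (1.25) and *Espn* (0.92), and it was 0.34 for *Vcl*. For each of these the exact permutation test, run two-sided, reached p = 0.1, the lowest that 3 against 3 libraries allow, which was 0.143 after adjustment over the 10 genes. *Actn4* (0.08, exact p = 1), *Palld* (-0.20, exact p = 1) and *Fscn1* (-0.67, exact p = 0.3) overlapped, and without labelled knockout 1 they were at -0.69, -0.99 and -1.14. When the median of the markers was used in place of their mean, the ratios of *Vcl* (-0.16) and *Actn4* (-0.37) turned sign. *Espn* was then at 0.68 and *Actn1* at 0.88. At day 7 the ratio was between 0.56 and 1.31 higher in the knockouts for the 10 genes, 6 of them without overlap, against 33.8% of all genes tested, and the exact test with 2 against 2 libraries could not have passed the threshold for any gene. Without knockout 1 these differences were between -0.08 for *Palld* and 0.24 for *Ezr*, so that this library carried most of them.

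The paralogs of the genes went in both directions in adult testis. *Fscn3*, the fascin of spermatids, measured 201.46, 210.95 and 200.94 FPKM in the controls and was listed at 0, 0.28 and 0.04 FPKM in the labelled knockouts, and it was called lower (edgeR adjusted p = 8.65e-05). *Lcp1*, the plastin of leukocytes, rose from 0.69, 0.83 and 0.85 FPKM to 23.83, 24.0 and 25.96 FPKM, with a log2 fold change of 4.11 (SE 0.15, adjusted p = 2.70e-05). *Pls1*, the plastin of microvilli, was not called at 0.03 (SE 0.70, adjusted p = 0.969), but was called at 0.65 without labelled knockout 1 (adjusted p = 0.0353). *Actn2* of muscle fell by 3.65 on the log2 scale (SE 0.76, adjusted p = 0.00443), and *Actn3* was not called at 0.60 (SE 0.28, adjusted p = 0.0855), but was called with total-count scaling (1.45, adjusted p = 0.00256). In contrast to *Eps8*, the related *Eps8l3* fell by 3.84 (SE 0.31, adjusted p = 8.96e-05) and *Eps8l2* by 1.06 (SE 0.24, adjusted p = 0.00681) on the log2 scale, the latter not called with total-count scaling (-0.20, adjusted p = 0.454).

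Of the relatives of ezrin, *Msn*, encoding moesin, rose from between 0.73 and 1.08 FPKM to 32.71, 21.38 and 24.69 FPKM, with a log2 fold change of 3.92 (SE 0.26, edgeR adjusted p = 5.30e-05). *Rdx*, encoding radixin, measured 75.22, 72.54 and 84.27 FPKM in the controls and 45.77, 48.25 and 54.86 FPKM in the labelled knockouts, with a log2 fold change of -0.44 (SE 0.13, adjusted p = 0.0172). With total-count scaling it was called in the opposite direction (0.42, adjusted p = 0.0307). Its estimated counts were higher in the labelled knockouts (2874, 3113 and 3286 against 2391, 2243 and 2554), while its FPKM values were lower. *Arpc5l*, the second form of the ARPC5 subunit, measured 108.5, 105.64 and 100.8 FPKM against 54.48, 62.19 and 64.08 FPKM and fell by 1.67 on the log2 scale (SE 0.11, adjusted p = 5.73e-05). *Arpc5* was below *Arpc5l* in every adult control on FPKM, and above it in labelled knockouts 1, 2 and 3. *Mypn*, a relative of palladin, fell by 2.12 on the log2 scale (SE 0.73, adjusted p = 0.0336) and was not called with total-count scaling (-1.23, adjusted p = 0.166). Without labelled knockout 1 its log2 fold change was -1.48. *Espnl*, *Fscn2* and *Eps8l1* did not pass the filter on low values.

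**Figure D5:**
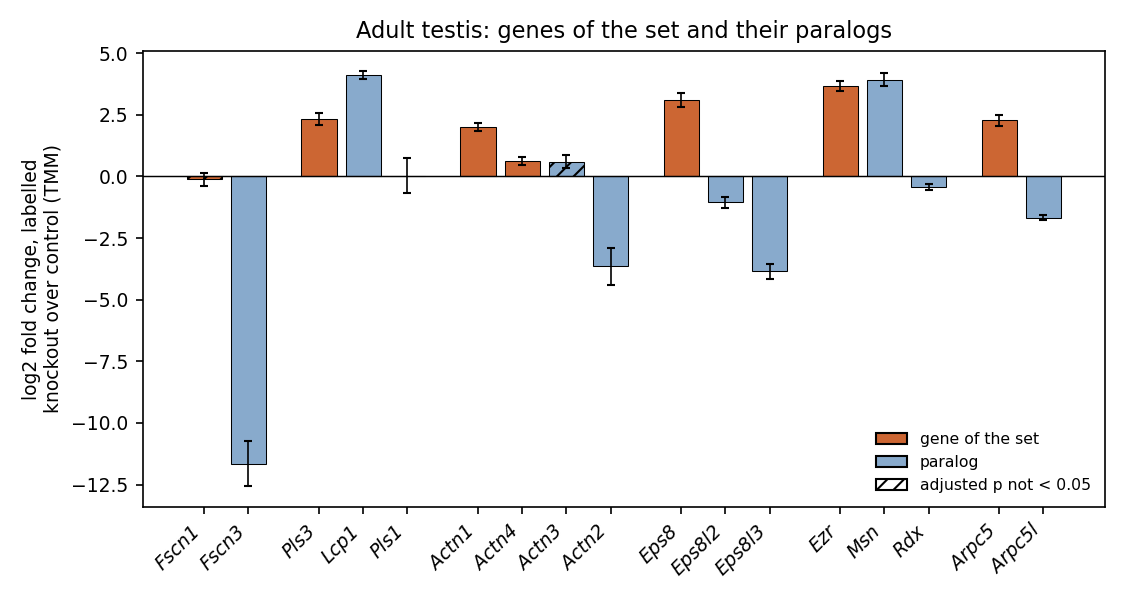
Log2 fold change (TMM scaling) in adult testis of *Fscn1*, *Pls3*, *Actn1*, *Actn4*, *Eps8*, *Ezr* and *Arpc5* (orange) and of their tested paralogs (blue). Bars give the standard error, and hatching marks an adjusted p-value not under 0.05. Of the paralogs, *Fscn3*, *Actn2*, *Eps8l2*, *Eps8l3*, *Rdx* and *Arpc5l* were called below 0, and *Lcp1* and *Msn* above 0. *Pls1* and *Actn3* were not called.

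Of 6 further lists of actin and junction genes, 96 genes in all, 0 of the 82 tested at day 7 were called by edgeR, 22 had an unadjusted p-value under 0.05, against 15.5% of all genes, and 6 were called by DESeq2, which called 4.50% of all genes. In adult testis each list held genes called in both directions, where 40.9% of all genes were called higher and 40.6% lower, or 54.1% and 30.0% with total-count scaling. Of 18 tested genes of the Arp2/3 complex and its activators, 12 were called higher and 2 lower (median log2 fold change 1.41), and with total-count scaling 15 were called higher and 1 lower, with a median of 2.27. Among them *Arpc1b*, a subunit, rose by 3.13 (SE 0.23, edgeR adjusted p = 6.93e-05), *Cyfip1* of the WAVE complex by 3.30 and *Was* of blood cells by 3.95, whereas *Wasf2* fell by 1.28 on the log2 scale, a call lost with total-count scaling (-0.42, adjusted p = 0.0693). Control counts of *Was* were only 4, 4 and 2, so the size of its change is uncertain. Of 14 vinculin partners, 6 were called higher and 4 lower, with a median of 0.90, a share called higher near that of all genes (40.9%). With total-count scaling 10 were called higher and 3 lower, with a median of 1.79, where 54.1% of all genes were called higher. *Tln1*, encoding talin 1, rose from between 2.32 and 2.72 FPKM to between 30.89 and 33.07 FPKM (log2 fold change 2.82), as did *Pdlim1* (3.19) and *Sorbs2* (3.08), and *Tln2* fell by 3.82, *Tes* by 3.86 and *Vasp* by 2.30.

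Of 20 adhesion and signalling genes of the ectoplasmic specialization, 11 were called higher and 5 lower in adult testis (median log2 fold change 0.80), against 40.9% and 40.6% of all genes. With total-count scaling 14 were called higher and 3 lower, with a median of 1.67, against 54.1% and 30.0% of all genes. *Itgb1*, the beta 1 integrin of the apical junction, rose by 2.67 (SE 0.15, edgeR adjusted p = 3.71e-05) and its partner *Itga6* by 2.54 (SE 0.59, adjusted p = 0.00719), *Lamc3* by 3.86. *Nectin3*, which spermatids display to nectin 2 of the Sertoli cell, measured 176.07, 155.14 and 181.23 FPKM in the controls and 6.32, 13.96 and 12.42 FPKM in the labelled knockouts, and fell by 4.69 (SE 0.32, adjusted p = 5.67e-05). *Lamb3* fell by 4.66 and *Limk2* by 2.07 on the same scale. At day 7 the groups of 9 of these 20 genes were apart with the knockouts lower, against 26.1% of all genes, and of 2 with the knockouts higher, against 24.8% of all genes.

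Among 12 tested relatives of the bundlers and crosslinkers, 3 were called higher and 5 lower in adult testis, with a median log2 fold change of -0.17, where 40.9% of all genes were called higher and 40.6% lower. With total-count scaling, where these shares were 54.1% and 30.0%, the balance turned, with 5 called higher and 3 lower and a median of 0.70. *Flna* (2.48) and *Lima1* (2.45) rose, and *Rai14*, an actin-binding protein of the ectoplasmic specialization, fell by 2.69. Among 8 relatives and partners of Eps8 and ezrin, 2 were called higher and 5 lower, with a median of -0.66, and here too the balance turned with total-count scaling, to 4 higher and 2 lower with a median of 0.20. The Eps8 partners *Abi1* (2.05) and *Baiap2* (-2.67) went opposite ways. Of 20 actins, capping and turnover proteins, 6 were called higher and 12 lower, with a median of -1.22, and with total-count scaling 8 were called higher and 9 lower, with a median of -0.36. The severing proteins *Scin* (4.15) and *Gsn* (4.05) and the depolymerizing *Dstn* (2.35) rose, and the spermatid genes *Actrt2*, *Capza3* and *Pfn3* fell, each listed at 0 in labelled knockout 1. Without labelled knockout 1, *Scin* was at 4.79, *Gsn* at 3.52 and *Dstn* at 2.50. Control counts of *Scin* were only 2, 7 and 6, so the size of its change is uncertain.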

How the data were processed

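RNA-seq libraries of 10 samples were analysed in 2 tables. Per the study's methods, the authors enriched RNA with oligo(dT), sequenced it on a BGISEQ platform, used HISAT to map reads to the GRCm38.p6 genome and Bowtie2 for the reference genes, and calculated FPKM by RSEM. Tool versions and strand handling are not given in the sources used here, and the adult experiment is described only in the labels. The deposited expected counts are not normalized, and the FPKM and TPM values deposited by the authors are scaled by length and library. TPM was not used for tests.

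Groups were taken from the labels. Counts were rounded and tested within each table with edgeR 4.0.16 in R 4.3.3 (quasi-likelihood test, TMM scaling, Benjamini-Hochberg adjustment). Genes with FPKM of at least 0.5 in at least 2 (day 7) or 3 (adult) samples were tested, 12880 and 15919 genes, and called at an adjusted p-value under 0.05. DESeq2 1.42.0, limma 3.58.1 on log2(FPKM + 0.1) or with a pseudocount of 1, other scalings, other filters, a replicate block and leaving out each library were alternatives. Fold changes of limma understate changes of low genes. Ratios to Sertoli cell markers used exact permutation tests over samples. The scripts were tested on simulated data. The 10 genes, the other lists and the naming rule (all 10 genes, their paralogs and, per list and direction, up to 3 called genes with the largest adult change) were chosen with earlier results of these data known. *Myot* was not listed in the tables, and *Sox9*, *Dhh* and *Acta2* were named as defining markers. Promoters came from RefSeq sequence (GRCm38.p6), which held windows for 9 of the 10 genes. Reads are not independent molecules, so the spread between libraries, not depth, was used as the error.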

Additional observations from a re-analysis of the deposited data

How the results depend on the processing

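In adult testis, *Espn*, *Eps8*, *Pls3*, *Ezr*, *Actn1*, *Actn4* and *Arpc5* were called higher in all 14 alternative fits, and under the study's thresholds *Espn* and *Actn4* were not. The study's thresholds called 7432 of all adult genes in place of 12969, and 47 of the related genes. Of 12969 adult calls, 6503 were higher and 6466 lower, and with total-count scaling 8615 of 13390 were higher. *Fscn1* turned sign in adult testis with total-count scaling (0.76), with limma (0.72, and 0.60 with a pseudocount of 1), and ranged between -0.26 and 0.20 when a library was left out. *Vcl* was called with total-count scaling (2.04), with limma at a pseudocount of 1 (1.58) and without knockout replicate 1 (1.71). Against the Sertoli cell markers, *Espn* moved to 0.68 and *Vcl* to -0.16 with their median, and to 0.76 and -0.08 with markers at 1 FPKM or more in every sample.

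At day 7, DESeq2 called 579 of all genes and 6 related genes where edgeR called 0. *Actn4* turned sign with total-count scaling (-0.03265), with limma (-0.03488, and -0.03478 with a pseudocount of 1) and without a filter (-0.0003893). Leaving out single libraries gave between 0 and 7 of the 10 genes, 0 and 5136 of all genes and 0 and 52 related genes called. *Actn4* then ranged between -0.067 and 0.076 and *Palld* between -0.13 and 0.48. The cause of these shifts was not tested.

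Replicate numbers are shared between groups, and no pairing was used in the main fit. In adult testis, deviations of same-numbered samples correlated at 0.0156, 0.0172 and 0.0246, and those of other pairs between -0.022 and 0.00661. At day 7 same-numbered samples gave 0.0383 and the others -0.0383, values that 2 libraries per group force to mirror each other. Correlations this low cannot decide whether the numbers pair the samples. With the replicate number as a block, 12209 adult genes were called, including 7 of the 10 genes, and 0 genes at day 7. The lowest counts of the 10 genes were 178 for *Espn* at day 7 and 76 for *Eps8* in adult controls, so counting error bears most on these.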
